A study of Caenorhabditis elegans with 5 samples.

Results

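The genes of the mitochondrial respiratory chain and ATP synthase were followed on 5 microarrays of whole Caenorhabditis elegans. They were every gene whose symbol in the platform annotation starts with nuo-, sdha-, sdhb-, ucr-, cyc-, cox- or atp-, together with gas-1, mev-1, isp-1 and the mitochondrially encoded ATP, COX, CYTB and ND genes. The rule uses names and no measured value, and it found 44 of the 17118 genes on the array, 36 encoded in the nucleus and 8 in the mitochondrial genome. All 44 passed a filter on low levels that 10271 genes passed, and all 44 also reached it on the array of worms that were not exposed alone. The rule takes in 6 genes that build complex IV without being part of it, and leaves out subunits that carry other names, which are given as separate lists.

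Each group was 1 array of RNA from wild-type hermaphrodites, used as young adults aged 3 days. The exposed groups had spent 24 h with benzene, with toluene (methylbenzene), with formaldehyde or with the BTF mix, which held benzene, toluene and formaldehyde together. The last group was not exposed and has the treatment none. Exposure took place at 20 °C in a salt medium with no food. The sources used here give neither the concentrations nor whether the worms that were not exposed also spent 24 h without food. The series screened for transcripts that differ after each compound and after the combination. Per the labels, 300 ng of total RNA per array was turned into biotin-labelled cRNA by priming from the 3' ends of transcripts.

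The respiratory chain is a set of protein complexes in the inner mitochondrial membrane. Complex I takes electrons from NADH and complex II takes them from succinate, both hand them to ubiquinone, complex III passes them to the small soluble carrier cytochrome c, and complex IV gives them to oxygen. Complexes I, III and IV pump protons as electrons pass, and ATP synthase (complex V) lets the protons back to make ATP. Most subunits are encoded in the nucleus and imported, while a few core membrane subunits are encoded in mitochondrial DNA, so that each of complexes I, III, IV and V is built from both genomes. In C. elegans, mutants of gas-1, mev-1, isp-1 and nuo-6 are classic models of altered respiration, oxidant sensitivity and lifespan.

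Values are deposited probe set intensities, and a log2 difference is log2(intensity + 16) on an exposed array minus the same on the array of worms that were not exposed. With 1 array per group there is no replicate, no test and no error, so no difference below has a replicate check. Higher and lower describe these arrays, and 2-fold, 1.5-fold and 1.2-fold (log2 differences of 1, 0.58 and 0.26) are rules of size. A set of 4 log2 differences or medians with no group beside them runs benzene, toluene, formaldehyde and BTF mix. The 4 exposures share 1 array of worms that were not exposed, so a value that stands apart on that array enters every difference from it. In whole animals, fewer cells of a type and less RNA per cell cannot be told apart.

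The arrays had median intensities between 82.3 and 84.8, and 47.2% of all 22625 probe sets carried an identical value on at least 1 pair of arrays. So did the probe sets of 18 of the 44 genes, 8 of 8 mitochondrial and 10 of 36 nuclear. The ratio of 3' to 5' probe sets was 3.35, 3.73, 3.30 and 3.87 for actin after benzene, toluene, formaldehyde and the BTF mix, and 4.94 in worms that were not exposed. For Gapdh it was 2.41, 2.56, 2.76 and 3.40 in the same order of exposures, and 3.03 in worms that were not exposed, and for ubiquitin 30.3, 30.0, 34.6 and 35.2, and 31.3 in worms that were not exposed. The array that was not exposed thus had the highest ratio for actin, and the BTF mix for Gapdh and ubiquitin. The part of these ratios in the differences below was not tested. The 24 probe sets for poly-A spikes, RNAs added before labelling, differed in the median by -0.45, -0.12, -0.13 and 0.57 after benzene, toluene, formaldehyde and the BTF mix from the array that was not exposed. Scaled on them, the median of all genes stood at 0.41, 0.10, 0.07 and -0.57 in place of -0.01, -0.01, -0.05 and -0.04. Every difference below is therefore a difference beyond the general level of the arrays, and a small one has no settled direction on the spike scale.

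The nuclear genes lay close to the worms that were not exposed, with 1 exception, the cytochrome c gene cyc-2.2. Their median log2 difference was 0.10 for benzene, 0.09 for toluene, 0.01 for formaldehyde and -0.02 for the mix, and with poly-A scaling it was 0.54, 0.21, 0.14 and -0.57. At 2-fold, cyc-2.2 alone was higher after benzene (1 of 36 nuclear genes, with 1.2% of all genes past the filter), after formaldehyde (1 of 36, with 4.55%) and after the mix (1 of 36, with 4.34%). After toluene 0 of 36 were 2-fold higher, with 0.107% of all genes. None of the 36 was 2-fold lower in any exposure, where the shares over all genes were 0.175% for benzene, 0.0974% for toluene, 2.27% for formaldehyde and 2.31% for the mix. At 1.5-fold, and on the probe sets used, again cyc-2.2 alone was higher in each of the 4 exposures (1 of 36), where 3.48%, 1.57%, 8.67% and 8.46% of all genes were higher after benzene, toluene, formaldehyde and the BTF mix. None was 1.5-fold lower, where the shares over all genes were 0.915%, 0.789%, 6.43% and 6.63% in the same order.

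Over the 5 arrays, the highest intensity of a nuclear gene was 1.17 times its lowest in the median. The ratio was under 1.2 for 22 of 36 nuclear genes (61.1%), against 43.9% of all genes past the filter. It reached 1.5 for 1 of 36 (2.78%), against 22.3% of all genes. That gene was cyc-2.2 at 6.105, and the next was ucr-2.2 at 1.43. For the 8 mitochondrial genes the ratio was at most 1.14. Neither the comparison with all genes past the filter nor that of nuclear with mitochondrial genes was matched for intensity.

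**Figure D1:**
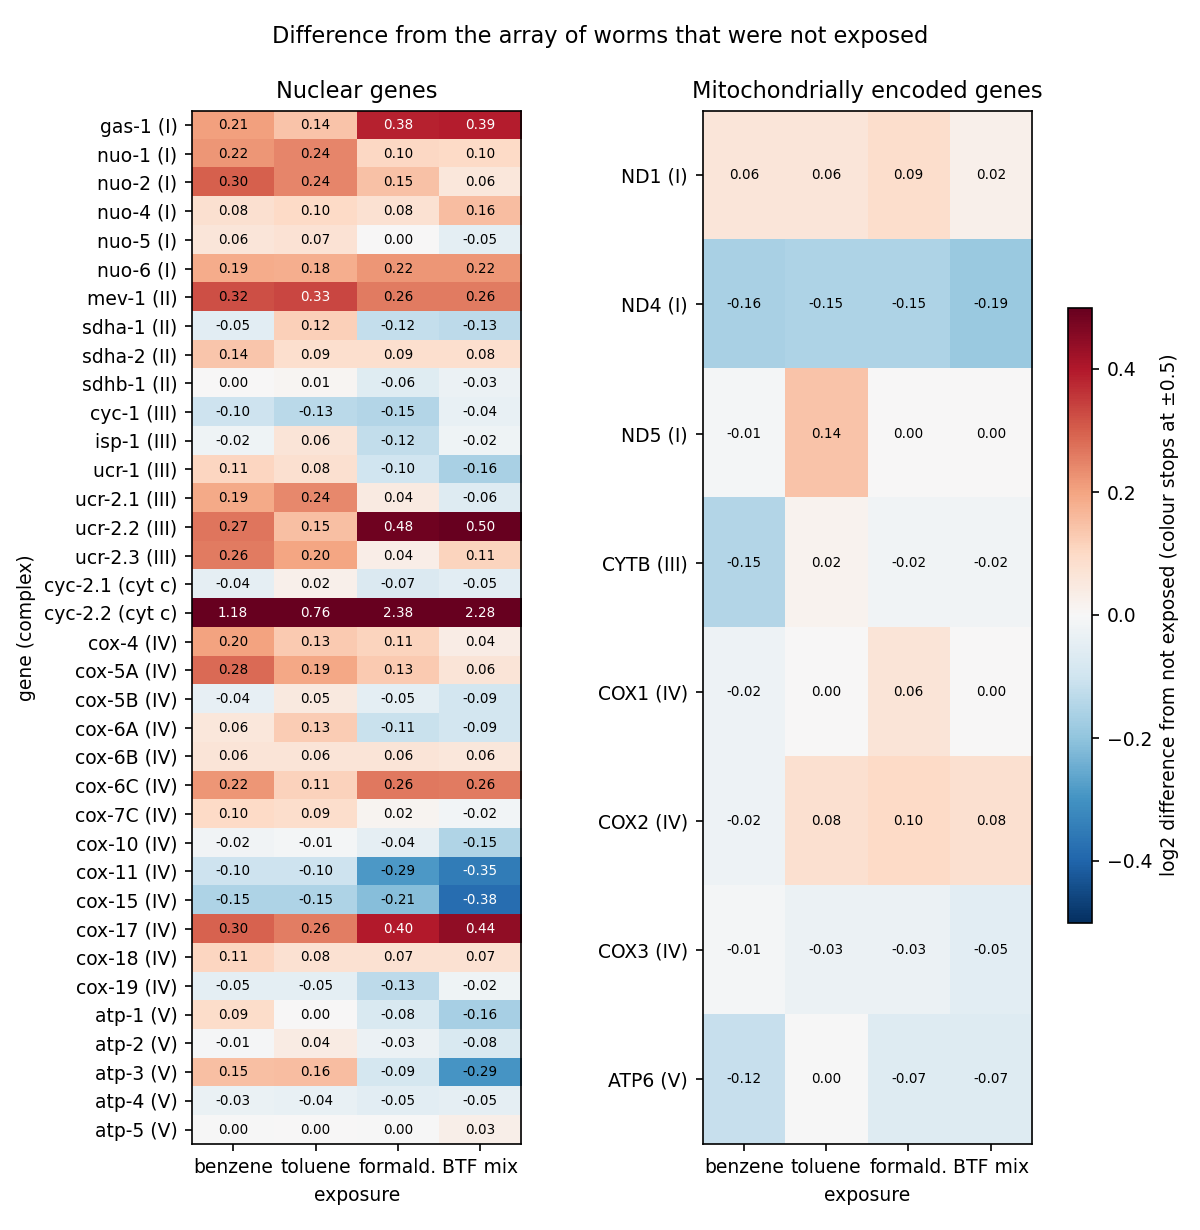
Log2 difference from the array of worms that were not exposed for the 36 nuclear genes (left) and 8 mitochondrially encoded genes (right), 1 column per exposure and 1 array per group, with the complex in parentheses and colour limited at 0.5 in either direction. The row of cyc-2.2 (0.76 to 2.38) stands apart from the other nuclear rows, which lie between -0.38 and 0.50.

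The heat map of all 44 genes shows, apart from that row, paler rows that include 2 kinds of pattern. Some genes were higher on all 4 exposed arrays, such as mev-1 and cox-17. Others were lower on all 4, such as cox-11 and cox-15. The array of worms that were not exposed was below all 4 exposed arrays for 16 of 36 nuclear genes (44.4%), where the share over all genes past the filter was 22.3%. It was above all 4 for 6 of 36 (16.7%), where the share over all genes was 35.3%. These orders rest on the single shared array and are given for the deposited scaling only. With poly-A scaling the median of all genes after the mix was -0.57. In size that exceeds the differences of mev-1 (0.26) and cox-17 (0.44) after the mix.

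Complex I, the NADH dehydrogenase, had 6 nuclear genes, and after benzene and toluene all 6 were above the worms that were not exposed on the probe sets used, where 42.3% of all genes were above 0 after benzene and 42.4% after toluene. Their median log2 difference was 0.20 for benzene, 0.16 for toluene, 0.12 for formaldehyde and 0.13 for the mix, the last of which became -0.44 with poly-A scaling. gas-1, which encodes a core subunit near the quinone site, had intensities of 1860.5 for benzene, 1778 for toluene, 2106 for formaldehyde and 2121 for the mix, against 1610.3 in worms that were not exposed. It was highest after formaldehyde and the mix, at log2 differences of 0.38 and 0.39, with 0.21 after benzene and 0.14 after toluene. A further probe set of gas-1 gave 0.30, 0.18, 0.39 and 0.33 after benzene, toluene, formaldehyde and the BTF mix, and both probe sets are marked as able to bind several transcripts. nduf-2.2, a paralog of gas-1 that the naming rule does not take in, stood at 0.20 after each single compound and 0.27 after the mix.

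nuo-2, a core subunit of the arm that reaches into the matrix, was highest after benzene, with log2 differences, after benzene, toluene, formaldehyde and the BTF mix, of 0.30, 0.24, 0.15 and 0.06. The gene for the subunit that binds NADH, nuo-1, stood at 0.22 after benzene and 0.24 after toluene, and at 0.10 after formaldehyde and after the mix. nuo-6, an accessory membrane subunit, had 1642 for benzene, 1635 for toluene, 1680.0 for formaldehyde and 1681 for the mix, against 1440.2 in worms that were not exposed, so that the 4 exposed arrays lay close together above it (0.18 to 0.22). For the accessory subunit gene nuo-4 the intensities were 4138, 4193, 4123 and 4359.9 after benzene, toluene, formaldehyde and the BTF mix, against 3911 in worms that were not exposed. Its other probe set gave -0.10, 0.03, -0.12 and -0.15 in the same order of exposures, so the direction of nuo-4 differs between probe sets in benzene, formaldehyde and the mix. nuo-5, an iron-sulfur subunit, was nearest to 0 on the probe set used, with 1692, 1704, 1620.1 and 1565 after benzene, toluene, formaldehyde and the BTF mix, against 1620.1 in worms that were not exposed. Its other, dimmer probe set gave log2 differences of 0.06, 0.20, 0.25 and 0.19, which puts the mix on the other side of 0.

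Complex II, succinate dehydrogenase, is encoded in the nucleus only, and the rule took in 4 of its genes. mev-1, the cytochrome b subunit that anchors the complex in the membrane, had 1624 for benzene, 1635 for toluene, 1553 for formaldehyde and 1553 for the mix, against 1294 in worms that were not exposed. Its log2 differences of 0.32, 0.33, 0.26 and 0.26 made it, on the probe sets used, the nuclear gene with the largest positive difference after benzene and toluene once cyc-2.2 was set aside. A probe set of ucr-2.2 that was not used stood higher, at 0.41 after benzene and 0.36 after toluene. The flavoprotein gene sdha-1 had 847, 955, 808 and 802 after benzene, toluene, formaldehyde and the BTF mix, against 879.6 in worms that were not exposed, so that toluene alone was above on the probe set used. Its other probe set gave 0.00, 0.00, -0.10 and 0.04, with the mix alone above. That probe set is marked for binding several transcripts and far dimmer, at intensities of 55.0 to 62.4. sdhb-1, the iron-sulfur subunit, varied little, with 3709, 3736, 3556 and 3630.4 after benzene, toluene, formaldehyde and the BTF mix, against 3709 in worms that were not exposed. sdha-2, a paralog of sdha-1, stood between 0.08 and 0.14. The median of the 4 was 0.07, 0.10, 0.01 and 0.03 after benzene, toluene, formaldehyde and the BTF mix, and the last became -0.54 with poly-A scaling.

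Complex III, which carries electrons from ubiquinol to cytochrome c, had 6 nuclear genes and lay on both sides of 0. Its median log2 difference was 0.15 after benzene and 0.11 after toluene, and -0.03 after both formaldehyde and the mix. With poly-A scaling the formaldehyde median was 0.10 and the mix median -0.60. Among the core protein genes, ucr-2.2 had 1038 for benzene, 954 for toluene, 1208 for formaldehyde and 1224 for the mix, against 859 in worms that were not exposed. Its log2 differences were 0.27, 0.15, 0.48 and 0.50, and its other probe set, which is not marked for binding several transcripts, gave 0.41, 0.36, 0.59 and 0.61, past 1.5-fold after formaldehyde and the mix. The paralogs ucr-2.1 and ucr-2.3 had their largest differences after toluene (0.24) and benzene (0.26), and after formaldehyde both stood at 0.04.

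The other complex III genes did not share that pattern. ucr-1, a core protein, had 3356 and 3289 after benzene and toluene, 2908 and 2779 after formaldehyde and the mix, against 3114 in worms that were not exposed, and so lay on both sides. cyc-1, the cytochrome c1 gene, was below on all 4 arrays, with 2409.6 for benzene, 2362 for toluene, 2339 for formaldehyde and 2526 for the mix, against 2592 in worms that were not exposed. isp-1, the Rieske iron-sulfur protein, had 9936, 10543, 9245 and 9936 after benzene, toluene, formaldehyde and the BTF mix, against 10079 in worms that were not exposed. Its other probe set gave log2 differences of 0.13, 0.18, -0.13 and -0.29, which puts the benzene array on the other side of 0.

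Cytochrome c, the carrier between complexes III and IV, is encoded by a pair of genes, and they differed from each other on every exposed array. cyc-2.2 had intensities of 189.5 for benzene, 138 for toluene, 456 for formaldehyde and 424 for the mix, against 74.7 in worms that were not exposed. The log2 differences were 1.18, 0.76, 2.38 and 2.28, which are folds of 2.27, 1.69, 5.20 and 4.85 on the scale with 16 added. Formaldehyde and the mix were highest, benzene and toluene lay between, and the array of worms that were not exposed was lowest. cyc-2.1, the other cytochrome c gene, had 10639 for benzene, 11156 for toluene, 10435 for formaldehyde and 10581 for the mix, against 10974 in worms that were not exposed. Its log2 differences, -0.04, 0.02, -0.07 and -0.05, put no array apart. Neither probe set is marked for binding several transcripts.

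**Figure D2:**
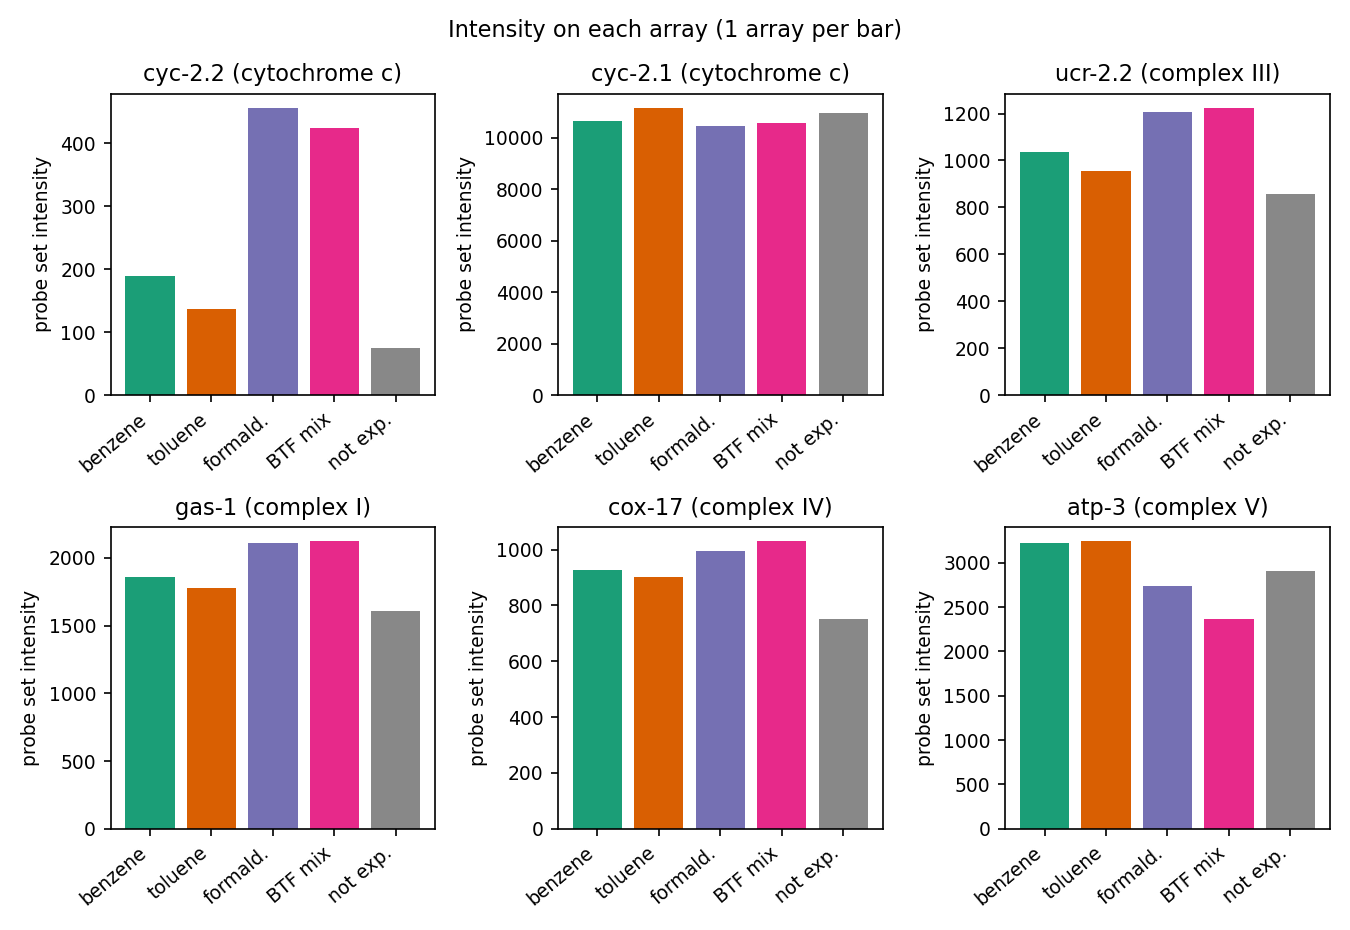
Probe set intensity (linear axis from 0) on each of the 5 arrays, 1 array per bar, for cyc-2.2, cyc-2.1, ucr-2.2, gas-1, cox-17 and atp-3, with heights comparable within a panel only. For cyc-2.2 the bars run between 74.7 (not exposed) and 456 (formaldehyde), while the cyc-2.1 bars all lie between 10435 and 11156.

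The bars by array make plain that the other genes shown differ by small steps beside those of cyc-2.2. Without cyc-2.2, the 35 remaining nuclear genes ranged over log2 differences of -0.15 to 0.32 after benzene, -0.15 to 0.33 after toluene, -0.29 to 0.48 after formaldehyde and -0.38 to 0.50 after the mix. Their medians without it were 0.09, 0.09, 0.00 and -0.02.

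Transcripts of sperm, which young adult hermaphrodites hold, ran in the same direction as cyc-2.2. Of 32 sperm markers (major sperm protein genes and sperm genes of other kinds), 30 passed the filter, with median log2 differences of 1.35 for benzene, 0.89 for toluene, 2.16 for formaldehyde and 2.01 for the mix. At 2-fold, 25, 2, 29 and 28 of the 30 were higher in that order, where the shares over all genes were 1.2%, 0.107%, 4.55% and 4.34%. The summed intensity of the 32 was 73661, 52429, 126513 and 111119 after benzene, toluene, formaldehyde and the BTF mix, against 28279 in worms that were not exposed. Of the 30, 28 rest on probe sets marked for binding several near-identical transcripts and are not separate measurements. The other two are ssp-16, at 1.02, 0.84, 2.08 and 1.87, and spe-11, at 0.35, 0.22, 1.02 and 0.82 after benzene, toluene, formaldehyde and the BTF mix. spe-11 was under the level of the filter on the array that was not exposed and passed through the exposed arrays. The difference of cyc-2.2 was exceeded by 24 of the 30 markers after benzene and 25 after toluene, and by 3 after formaldehyde and 0 after the mix. The part of sperm content in the cyc-2.2 result was not tested, and no probe set on any array was at 0, the lowest value being 9.15.

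**Figure D3:**
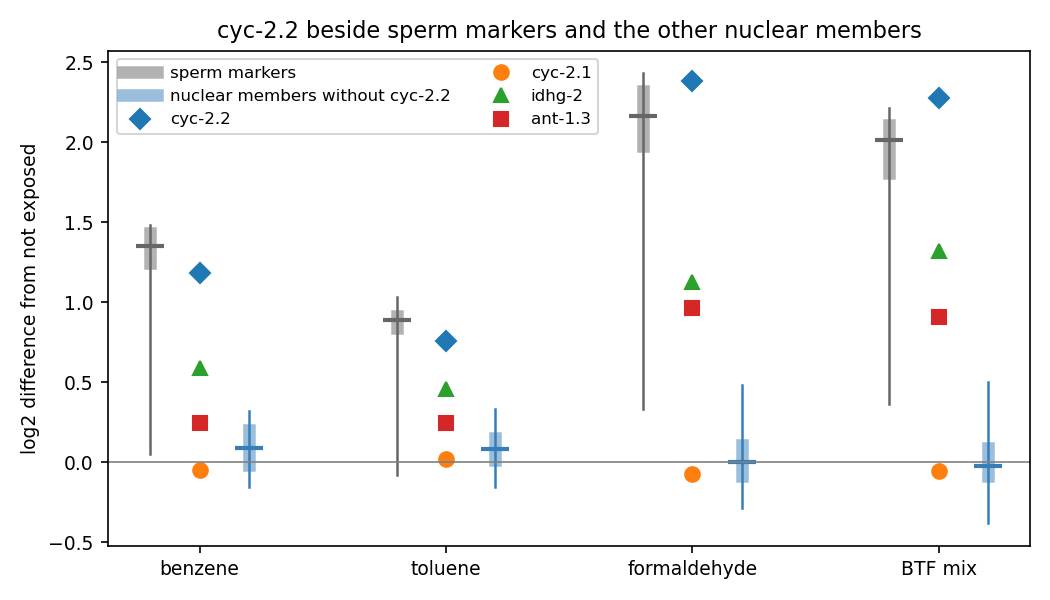
Log2 difference from the array of worms that were not exposed, by exposure, for cyc-2.2, cyc-2.1, idhg-2 and ant-1.3 (points), beside the 30 sperm markers (grey) and the 35 other nuclear genes (blue), drawn as range (thin line), quartiles (thick bar) and median (cross line). cyc-2.2 lies near the sperm markers in all 4 exposures and outside the range of the 35 other nuclear genes, while cyc-2.1 lies inside it.

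In the plot of cyc-2.2 beside the sperm markers, 2 further genes with paralogs lie above the other nuclear genes after formaldehyde and the mix. One is idhg-2, a gamma subunit of the isocitrate dehydrogenase of the TCA cycle, which had 310.4, 282, 456 and 524 after benzene, toluene, formaldehyde and the BTF mix, against 201 in worms that were not exposed. Its paralog idhg-1 stood at -0.01, 0.08, -0.13 and -0.11 where idhg-2 stood at 0.59, 0.46, 1.12 and 1.32. The other is ant-1.3, an adenine nucleotide translocator that exchanges ADP for ATP across the inner membrane, with 119.2, 119.2, 206 and 198 after benzene, toluene, formaldehyde and the BTF mix, against 97.8 in worms that were not exposed. ant-1.1 stood at 0.08, 0.13, -0.13 and -0.15, and ant-1.2 did not pass the filter. ant-1.4, with 55.7, 46.5, 75.4 and 67.6 after benzene, toluene, formaldehyde and the BTF mix, against 42.6 in worms that were not exposed, passed only through the arrays on which it was higher, so its differences are not set beside the others. In each of these families, as in cytochrome c, 1 member or more lay within 1.2-fold after formaldehyde and the mix and another stood past 1.5-fold after formaldehyde. The families were picked for a member with a large difference, so that is no separate result. Other families did not share it on the probe sets used. After formaldehyde mai-1 and mai-2 stood at 0.68 and 0.41, gas-1 and nduf-2.2 at 0.38 and 0.20, and sdha-1 and sdha-2 at -0.12 and 0.09. Nearer to it after formaldehyde were ucr-2.2 at 0.48 beside ucr-2.1 and ucr-2.3 at 0.04, and asg-2 at 0.46 beside asg-1 at 0.02. The probe set of ucr-2.2 that was not used, at 0.59, was past 1.5-fold after formaldehyde and so shared it.

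Other cell type markers were set beside these values. Their summed intensities after benzene, toluene, formaldehyde and the BTF mix, against worms that were not exposed, were 62673, 62150, 63050 and 62807, against 59264, for 18 body wall and pharyngeal muscle genes, and 27029, 23863, 29731 and 28651, against 21741, for 15 intestine genes. For 20 oocyte and germline genes they were 101658, 99633, 104071 and 101873, against 109717. For the 15 neuron genes, 12 of which passed the filter, they were 7626, 7222, 6452 and 6379, against 8351, and for 13 hypodermis and seam genes 34539, 33159, 39805 and 38130, against 28264. The sperm sum thus differed most in each exposure, by several times after formaldehyde and the mix. The part of tissue makeup in the small differences of the other nuclear genes was not tested.

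Complex IV, cytochrome c oxidase, had 13 nuclear genes, 7 subunits and 6 assembly factors, and the largest differences lay among the assembly factors. Over the 7 subunits the median log2 difference was 0.10 for benzene, 0.11 for toluene, 0.06 for formaldehyde and 0.04 for the mix. cox-5A stood at 0.28, 0.19, 0.13 and 0.06 on its brighter probe set and at 0.00, 0.02, 0.00 and 0.00 on the other. cox-6C, at 0.22, 0.11, 0.26 and 0.26, and cox-4, at 0.20, 0.13, 0.11 and 0.04 after benzene, toluene, formaldehyde and the BTF mix, were above 0 on all 4 arrays. cox-5B had 5496, 5840.4, 5464 and 5304 after benzene, toluene, formaldehyde and the BTF mix, against 5651 in worms that were not exposed. cox-6A had 8067, 8455, 7178 and 7278 after benzene, toluene, formaldehyde and the BTF mix, against 7748 in worms that were not exposed, so that benzene and toluene lay above and formaldehyde and the mix below.

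Among the assembly factors, cox-17, a copper chaperone, was higher on all exposed arrays, and the factors for haem A synthesis and copper delivery were lower. cox-17 had 927 for benzene, 902 for toluene, 995 for formaldehyde and 1029 for the mix, against 752 in worms that were not exposed (0.30, 0.26, 0.40 and 0.44). cox-15, which acts in haem A synthesis, had 489.8, 489.8, 469 and 417 after benzene, toluene, formaldehyde and the BTF mix, against 547 in worms that were not exposed (-0.15, -0.15, -0.21 and -0.38). cox-11, which acts in copper delivery, followed the same order at -0.10, -0.10, -0.29 and -0.35 after benzene, toluene, formaldehyde and the BTF mix. cox-10, a further haem A synthesis gene, stood between -0.15 and -0.01, the membrane insertion factor gene cox-18 between 0.07 and 0.11, and cox-19 between -0.13 and -0.02. The median of the 6 was -0.03, -0.03, -0.09 and -0.09.

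ATP synthase had 5 nuclear genes under the rule, with medians of 0.00 for benzene, 0.00 for toluene, -0.05 for formaldehyde and -0.08 for the mix, which became 0.45, 0.13, 0.074 and -0.65 with poly-A scaling. Without marked probe sets the medians were 0.12 after benzene, 0.066 after formaldehyde and 0.050 after the mix, so the side on which complex V lay depends on the probe sets. The genes of the catalytic head, atp-1 (alpha) and atp-2 (beta), differed little. atp-1 had 5517, 5192, 4913 and 4620.2 after benzene, toluene, formaldehyde and the BTF mix, against 5180.1 in worms that were not exposed. atp-2 had 10194, 10538, 10035 and 9714 after benzene, toluene, formaldehyde and the BTF mix, against 10237 in worms that were not exposed. The largest differences were those of atp-3, which encodes the stalk subunit OSCP that joins the head to the membrane part, with 3228 for benzene, 3242 for toluene, 2736 for formaldehyde and 2369.7 for the mix, against 2910.1 in worms that were not exposed. Its log2 differences of 0.15, 0.16, -0.09 and -0.29 put the mix farthest below. atp-4 and atp-5, both stalk subunits, lay between -0.05 and 0.03 on their brightest probe sets, and the other probe set of atp-4, which is not marked, gave 0.24, 0.19, 0.11 and 0.09 after benzene, toluene, formaldehyde and the BTF mix.

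**Figure D4:**
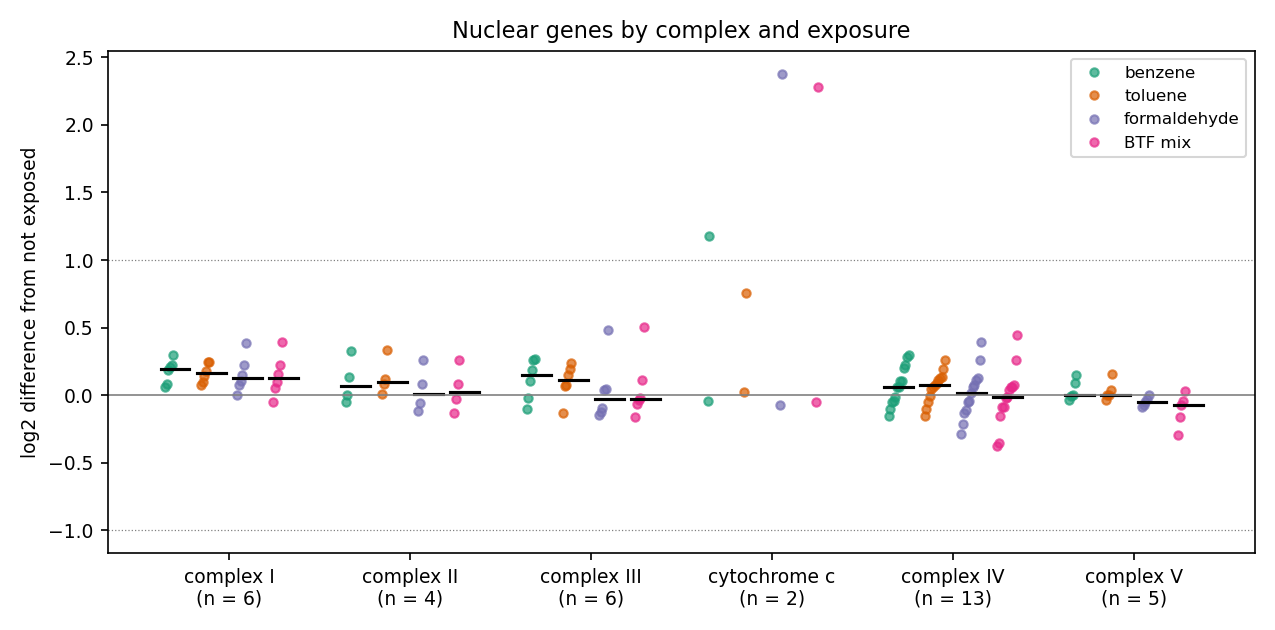
Log2 difference from the array of worms that were not exposed for each nuclear gene (1 point per gene), by complex and exposure, with the median of each complex as a black line (none drawn for the 2 cytochrome c genes) and dotted lines at 2-fold. The points past 2-fold are all cyc-2.2, and with poly-A scaling all points of an exposure shift together with the median of all genes, to 0.41 (benzene), 0.10 (toluene), 0.07 (formaldehyde) or -0.57 (BTF mix), so that most points of the mix then lie below 0.

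The plot by complex shows the points of complexes I to V within a narrow band, and the smaller threshold of 1.2-fold describes that band. At 1.2-fold, 6 of 36 nuclear genes were higher after benzene, with 11.6% of all genes, and 0 were lower, with 9.14%. The 6 were cyc-2.2, mev-1, nuo-2, cox-17, cox-5A and ucr-2.2. After toluene 2 were higher (cyc-2.2 and mev-1), with 8.05% of all genes, and 0 lower, with 9.52%. After formaldehyde 5 were higher (cyc-2.2, ucr-2.2, cox-17, gas-1 and cox-6C), with 15.1% of all genes, and 1 lower (cox-11), with 19.7%. After the mix 4 were higher (cyc-2.2, ucr-2.2, cox-17 and gas-1), with 15.9%, and 3 lower (cox-15, cox-11 and atp-3), with 19.2%.

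The 8 mitochondrially encoded genes had smaller differences than the nuclear ones on these arrays, and 0 of 8 passed 1.2-fold in any exposure. That contrast was not matched for intensity. Apart from ND5, the mitochondrial genes were bright, with intensities of 4452 (ATP6, benzene) to 15187 (ND4, not exposed). Some bright nuclear genes, such as cyc-2.1 and atp-2, also varied little over the arrays, and others, such as cox-6A, varied more. The part of intensity in the contrast was not tested. Most of all genes past the filter also lay within 1.2-fold, 79.2%, 82.4%, 65.2% and 64.9% after benzene, toluene, formaldehyde and the BTF mix. The median absolute log2 difference of the 8 was 0.04 for benzene, 0.04 for toluene, 0.07 for formaldehyde and 0.04 for the mix, beside 0.11, 0.11, 0.10 and 0.09 for the nuclear genes and 0.12, 0.11, 0.17 and 0.17 for all genes past the filter. Median log2 differences of the 8 were -0.02 for benzene, 0.01 for toluene, -0.01 for formaldehyde and -0.01 for the mix, which became 0.43, 0.13, 0.12 and -0.58 with poly-A scaling. Each of the 8 has 1 probe set, and each carried an identical intensity on at least 1 pair of arrays. RefSeq lists 12 protein-coding genes on the mitochondrial chromosome, and the others are not analysed here.

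ND1, ND4 and ND5 encode membrane core subunits of complex I. ND1 had 6503, 6503, 6643 and 6352 after benzene, toluene, formaldehyde and the BTF mix, against 6243 in worms that were not exposed, and was the 1 mitochondrial gene above on all 4 arrays. Its probe set is marked for binding several transcripts, and those of the other mitochondrial genes are not. ND4 had 13569, 13643, 13643 and 13357 after benzene, toluene, formaldehyde and the BTF mix, against 15187 in worms that were not exposed. Its log2 differences of -0.16, -0.15, -0.15 and -0.19 were the largest of the 8 genes in each exposure, all on the lower side. ND5 had 338, 378, 341 and 341 after benzene, toluene, formaldehyde and the BTF mix, against 341 in worms that were not exposed, so that toluene alone stood off.

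CYTB, the cytochrome b of complex III, had 6186 for benzene, 6935 for toluene, 6753 for formaldehyde and 6753 for the mix, against 6842 in worms that were not exposed, with benzene lowest. COX1, a catalytic core subunit of complex IV, had 9043, 9201, 9625 and 9201 after benzene, toluene, formaldehyde and the BTF mix, against 9201 in worms that were not exposed. COX2, the other catalytic core subunit, had 4749, 5111, 5169 and 5111 after benzene, toluene, formaldehyde and the BTF mix, against 4828 in worms that were not exposed. These values lay within 0.10 of 0 on the log2 scale for COX1 and COX2 and within 0.15 for CYTB. COX3, a further core subunit, had 10035, 9923, 9923 and 9743 after benzene, toluene, formaldehyde and the BTF mix, against 10114 in worms that were not exposed. ATP6, a subunit of the proton channel of ATP synthase, had 4452, 4828, 4612 and 4612 after benzene, toluene, formaldehyde and the BTF mix, against 4829.7 in worms that were not exposed.

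Comparisons between exposed arrays do not use the shared array. For the mix against formaldehyde, the log2 differences of the 36 nuclear genes lay between -0.21 (atp-3) and 0.11, with a median of 0.00, and none of the 44 genes passed 1.2-fold, where 1.87% of all genes were higher and 2.34% lower. The mix lay below all 3 single compounds for 18 of 36 nuclear genes, with 24.1% of all genes doing so, and above all 3 for 8 of 36, with 22.9%. Under poly-A scaling the median of the mix minus formaldehyde was -0.69 for the nuclear genes and -0.64 for all genes. The counts of genes below or above all 3 single compounds hold for the deposited scaling only.

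For benzene against toluene, whose matching in dose is not known, the nuclear median was 0.00 and the mitochondrial median -0.07, which was 0.26 with poly-A scaling. At 1.2-fold 1 of 36 was higher after benzene, cyc-2.2 at 0.42, with 6.19% of all genes higher, and 0 were lower, with 2.44%. The other nuclear genes lay between -0.17 and 0.12. For formaldehyde against benzene, 6 of 36 nuclear genes were above 0 and the median was -0.06, while 7 of 8 mitochondrial genes were above 0 with a median of 0.04, where 39.8% of all genes were above 0. With poly-A scaling the medians were -0.38 and -0.28, and that of all genes -0.32. cyc-2.2 stood at 1.1996, the 1 of 36 nuclear genes that was 2-fold higher, with 1.11% of all genes, and 0 were 2-fold lower, with 1.24%.

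The rest of the pathway was taken as lists of genes under other names. None of the 37 electron chain subunits and carriers was 1.5-fold away in any exposure. After benzene, toluene, formaldehyde and the BTF mix, 3.48%, 1.57%, 8.67% and 8.46% of all genes were 1.5-fold higher. The shares that were 1.5-fold lower were 0.915%, 0.789%, 6.43% and 6.63%. Medians of the 37 were 0.07, 0.12, 0.06 and 0.06 in the same order, where the nuclear genes of the rule had 0.10, 0.09, 0.01 and -0.02. The largest differences were those of T27E9.2 (0.25, 0.16, 0.42 and 0.50), ndua-2 and ndub-3, complex I accessory subunits, at 0.40 and 0.36 after the mix, and R07E4.3 at 0.37 after the mix. At 1.2-fold, 3, 2, 5 and 8 of the 37 were higher after benzene, toluene, formaldehyde and the BTF mix, and 1 was lower after the mix. The shares over all genes were 11.6%, 8.05%, 15.1% and 15.9% higher, and 19.2% lower after the mix, so the counts after benzene, toluene and formaldehyde lay below them.

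Among 14 ATP synthase subunits and regulators the medians were 0.14, 0.13, 0.05 and 0.08, and mai-1 was the 1 gene past 1.5-fold, in all 4 exposures. The shares of all genes 1.5-fold higher were 3.48%, 1.57%, 8.67% and 8.46% after benzene, toluene, formaldehyde and the BTF mix. mai-1 encodes an inhibitor that keeps ATP synthase from running backwards, and it had 464 for benzene, 499 for toluene, 488 for formaldehyde and 464 for the mix, against 299 in worms that were not exposed. Its paralog mai-2 stood at 0.39, 0.33, 0.41 and 0.47, the subunit g gene asg-2 at 0.37, 0.26, 0.46 and 0.40, and asg-1, the paralog of asg-2, at -0.01, 0.12, 0.02 and 0.08. The subunit b genes asb-1 and asb-2 stood at 0.21 and 0.25 after benzene and at 0.04 and 0.24 after formaldehyde. hpo-18, the epsilon subunit, lay between 0.25 and 0.30. Of 7 carriers and uncouplers, 6 passed the filter, ant-1.4 only through the exposed arrays, and the median of the other 5 was 0.12, 0.13, -0.04 and -0.15. With ant-1.4 it was 0.18, 0.11, 0.27 and 0.18, so the direction after formaldehyde and the mix rests on that gene. R07E3.4 stood at 0.97 after the mix and the uncoupling protein gene ucp-4 at -0.20 in all 4 exposures.

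**Figure D5:**
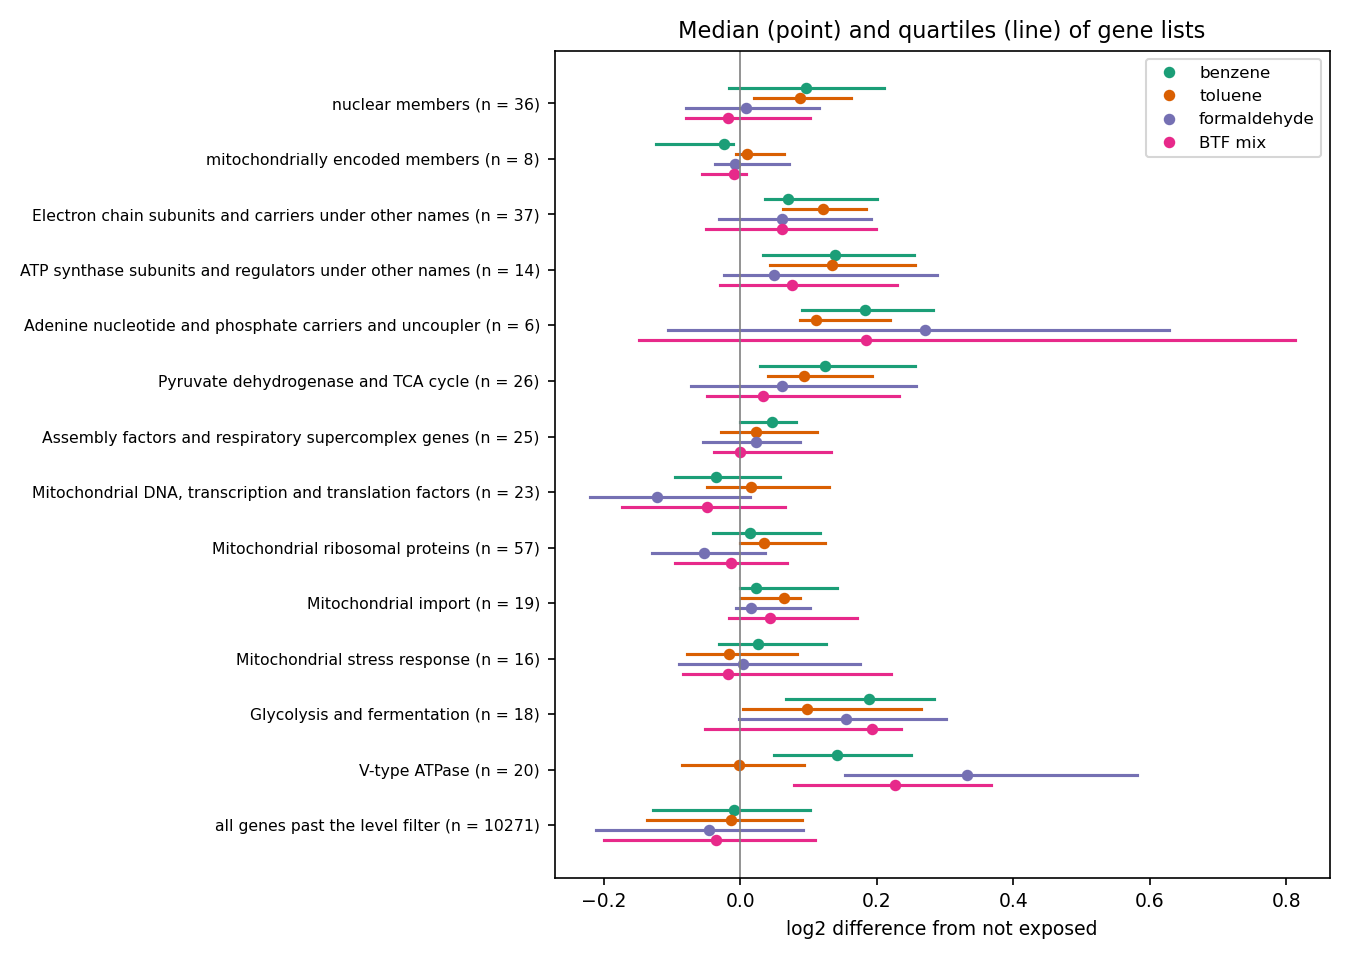
Median (point) and quartiles (line) of the log2 difference from the array of worms that were not exposed, by exposure, for the nuclear and mitochondrial genes, 11 further lists and all 10271 genes past the filter. V-type ATPase genes after formaldehyde (0.33) have the largest median, and the carrier list is drawn with ant-1.4, and with poly-A scaling every list shifts with its array by about the shift of the median of all genes.

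Lists that feed or build the chain also stayed near 0 in the plot of list medians. The 26 genes of pyruvate dehydrogenase and the TCA cycle had their median difference at 0.12, 0.09, 0.06 and 0.03 after benzene, toluene, formaldehyde and the BTF mix. The 11 lists hold 6 to 57 genes past the filter each. Among all their genes idhg-2 was the 1 that was 2-fold higher, after formaldehyde (with 4.55% of all genes) and the mix (with 4.34%). Beside it stood the pyruvate carboxylase gene pyc-1 (0.50, 0.51, 0.60 and 0.51), the mitochondrial pyruvate carrier gene mpc-1 (0.30, 0.26, 0.58 and 0.63) and suca-1, a succinyl-CoA ligase subunit (0.38, 0.16, 0.63 and 0.52). The 25 assembly factors and supercomplex genes had median differences of 0.05, 0.02, 0.02 and 0.00. coa-4, nuaf-3 and sft-1, assembly factors, stood at -0.39, -0.32 and -0.21 after formaldehyde, and immt-1, which shapes the inner membrane, at 0.35.

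Genes that serve the mitochondrial genome differed little as well. The 23 factors of mitochondrial DNA, transcription and translation had their median difference at -0.04, 0.01, -0.12 and -0.05 after benzene, toluene, formaldehyde and the BTF mix. polg-1, the mitochondrial DNA polymerase, had 153, 174, 125 and 118.7 after benzene, toluene, formaldehyde and the BTF mix, against 159 in worms that were not exposed, and hmg-5, which binds mitochondrial DNA, had 864, 919.6, 753 and 726 after benzene, toluene, formaldehyde and the BTF mix, against 941 in worms that were not exposed. The elongation factor gene gfm-1 stood at -0.37 after the mix and iars-2, a tRNA synthetase gene, at 0.31. Over 57 mitochondrial ribosomal proteins the medians were 0.01, 0.03, -0.05 and -0.01, with mrps-11 (-0.47), mrps-5 (-0.40) and mrpl-44 (0.45) after the mix. mrps-6 stood at 0.27, 0.40, 0.02 and 0.06, farthest from 0 after toluene.

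The 19 import genes had median differences of 0.02, 0.06, 0.02 and 0.04, with the processing peptidase gene mppa-1 at 0.45 and the receptor gene tomm-70 at 0.32 after the mix, and the channel genes timm-23 at -0.23 and timm-17B.2 at 0.22. The 16 genes listed by hand for the mitochondrial stress response, not all of them particular to it, had their median difference at 0.03, -0.02, 0.00 and -0.02 after benzene, toluene, formaldehyde and the BTF mix. Their largest difference was that of dve-1, a transcription factor of that response, with 543, 532, 393 and 441 after benzene, toluene, formaldehyde and the BTF mix, against 638 in worms that were not exposed (-0.23, -0.25, -0.68 and -0.52). The chaperonin gene hsp-60 stood at 0.27, 0.07, 0.37 and 0.29, hsp-110 at 0.39 after the mix and ubl-5, a ubiquitin-like regulator, at 0.38. hsp-60 and dve-1, which act in the same response, thus lay on opposite sides.

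Glycolysis and proton pumping outside mitochondria were given for comparison. The 18 genes of glycolysis and fermentation had, after benzene, toluene, formaldehyde and the BTF mix, median differences of 0.19, 0.10, 0.15 and 0.19. ldh-1, lactate dehydrogenase, had 1290.2, 1164, 1341 and 1324 after benzene, toluene, formaldehyde and the BTF mix, against 885 in worms that were not exposed, and fbp-1, the gluconeogenic fructose bisphosphatase, had 1583, 1512, 1901 and 2030.39 after benzene, toluene, formaldehyde and the BTF mix, against 1229.9 in worms that were not exposed. The glucose phosphate isomerase gene gpi-1 stood at 0.40 after formaldehyde and the pyruvate kinase gene pyk-1 at 0.42 after benzene. The 20 subunits of the V-type ATPase, which acidifies lysosomes and other compartments, had median differences of 0.14, 0.00, 0.33 and 0.23, and 5, 0, 12 and 8 of them were 1.2-fold higher, where 11.6%, 8.05%, 15.1% and 15.9% of all genes were. vha-12 had 1579, 1205, 2150.3 and 1925 after benzene, toluene, formaldehyde and the BTF mix, against 1225 in worms that were not exposed, and vha-10, vha-15 and vha-8 stood at 0.66, 0.65 and 0.65 after formaldehyde. These 4 rest on probe sets marked for binding several transcripts, and the list shares vha-6 with the intestine markers, whose median was 0.30, 0.10, 0.54 and 0.55, and 0.29, 0.11, 0.54 and 0.46 without pho-1, which passed the filter only through exposed arrays.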

How the data were processed

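The 5 arrays, 1 per group, were deposited as linear intensity values of probe sets. Per the submitters' processing notes, RMA, Affymetrix Expression Console 1.1 and MAS5 were used, with no role stated. The sources used here do not give which of them made the deposited intensities, nor how arrays were scaled.

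Genes were named from the platform annotation, which pairs 20766 of 22625 probe sets with 1 gene, 887 with several and 895 with none, beside 77 control probe sets. By Entrez identifier, 20701 matched RefSeq, with 0 changed symbols. A gene with several probe sets took the one with the highest mean over the 5 arrays. The 44 genes had 58 probe sets, 28 of them marked s or x (able to bind several transcripts), 12 genes had several, and the largest gap to the probe set used was 0.31 (nuo-4). A probe set that names cox-18 with another gene was left out. Intensities were taken to log2(value + 16), which understates differences of dim genes, and genes entered counts if their mean reached the 40th percentile (6.05). Precision is limited by the number of arrays.

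The members and gene lists were chosen with earlier results of these data known. Named were every mitochondrial gene, every nuclear gene 1.5-fold away in an exposure, the gene with the largest positive and negative difference and the brightest of each complex, several textbook genes, and up to 4 genes per list with the largest difference. Other genes were named after their values were seen. The assembly list holds hcf-1, host cell factor, in error, and some genes stand in more than 1 list. Counting steps were tested on simulated data. Python 3.11.15, pandas 2.3.3 and NumPy 2.4.6 were used. No sequence is printed.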

Additional observations from a re-analysis of the deposited data

How the results depend on the processing

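With 1 array per group there is no replicate to leave out, and no test. No paired analysis was possible because each group has a single array and the groups share only 1 replicate number. The results were computed again with pseudocounts of 1 and 64, no level filter or one at the 60th percentile, median centring, quantile normalization, poly-A spike scaling, probe sets of a gene averaged, no s or x probe sets (22 nuclear and 7 mitochondrial genes left), 1.5-fold and 1.2-fold thresholds, and, added after seeing the data, the filter level reached on the array that was not exposed as well. A median counts as moved if it shifts by 0.1 or more on the log2 scale, a size set by hand for want of replicates. Apart from poly-A scaling, 332 of 342 medians and 256 of 261 counts at 2-fold did not move. That size is above the nuclear medians themselves (0.096, 0.087, 0.008 and -0.018), so a median can change sides of 0 without counting as moved. Complex V after benzene did so, from -0.0006 to 0.09, with probe sets averaged. Quantile normalization took the nuclear median after benzene from 0.096 to 0.049. Median centring shifts all genes of an array alike, and took that median to 0.102. All 44 genes pass the filter, also on the array that was not exposed alone, so the level settings could hardly move their medians. At the 60th percentile 35 of the 36 nuclear genes stayed. Nuclear counts at 2-fold were 0 or 1, which leaves little room to move. For cyc-2.2 the log2 difference stayed between 0.87 and 1.60 after benzene, 0.54 and 0.87 after toluene, 1.91 and 2.59 after formaldehyde and 1.73 and 2.49 after the mix over these settings.

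With poly-A scaling, in the order benzene, toluene, formaldehyde and mix, medians were 0.54, 0.21, 0.14 and -0.57 (nuclear), 0.43, 0.13, 0.12 and -0.58 (mitochondrial), 0.65, 0.29, 0.25 and -0.44 (complex I), 0.52, 0.22, 0.14 and -0.54 (II), 0.60, 0.24, 0.10 and -0.60 (III), 1.01, 0.51, 1.28 and 0.55 (cytochrome c), 0.52, 0.19, 0.14 and -0.57 (IV) and 0.45, 0.13, 0.074 and -0.65 (V). Between exposures they were -0.69 (nuclear) and -0.72 (mitochondrial) for the mix minus formaldehyde, 0.33 and 0.26 for benzene minus toluene, and -0.38 and -0.28 for formaldehyde minus benzene, where 0 nuclear genes were 2-fold higher. These follow the shifts of whole arrays. The sign changed for the mitochondrial genes after benzene and formaldehyde, for complexes I and II after the mix, for complex III after formaldehyde, for complex V after benzene and formaldehyde, and for the mitochondrial genes in both comparisons of benzene.

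The cytochrome c median was 0.41, 0.28, 0.92 and 0.88 with a pseudocount of 64, and 1.26 after formaldehyde and 1.22 after the mix with 1. Without s or x probe sets complex V stood at 0.12 after benzene, 0.066 after formaldehyde and 0.050 after the mix, and complex II at 0.23 after toluene, from fewer genes; the 3 complex V medians changed sign. With a pseudocount of 64, 0 nuclear genes were 2-fold higher after benzene. At 1.5-fold 1 was higher after toluene. At 1.2-fold 6, 2, 5 and 4 were higher, 1 lower after formaldehyde and 3 after the mix, and 1 higher for benzene minus toluene. Over the pathway lists, genes 2-fold higher numbered 2 after benzene, 2 after formaldehyde and 0 after the mix with poly-A scaling (2 lower after the mix), 2 after formaldehyde and 3 after the mix with a pseudocount of 1, 0 after formaldehyde with 64, and 2 after the mix with median centring. Over all genes, 367, 566 and 189 were higher after benzene, formaldehyde and the mix with poly-A scaling, and 908 lower after the mix. With a pseudocount of 1, 542 of all genes were higher after formaldehyde and 519 after the mix. With 64, 332 were higher after formaldehyde, and with median centring 479 after the mix. At 1.5-fold 2, 1, 14 and 8 list genes were higher, with 3.48%, 1.57%, 8.67% and 8.46% of all genes, and 1 lower after formaldehyde, with 6.43%. At 1.2-fold 35, 17, 42 and 43 were higher, with 11.6%, 8.05%, 15.1% and 15.9% of all genes. Lower at 1.2-fold were 1 after benzene, 14 after formaldehyde and 16 after the mix, with 9.14%, 19.7% and 19.2% of all genes. The lists hold 6 to 57 genes past the filter each, some of them in more than 1 list.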
